A study of Mus musculus with 2 samples.

Results

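The genes of the respiratory chain and of ATP synthase were examined in uncultured mouse lung set against mouse embryonic fibroblasts (MEF). A gene belonged to the group when the platform annotation gave a probe 1 symbol starting with Nduf, Uqcr or Atp5, with Sdh and a letter, with Cox and a number, or equal to Cyc1, Cycs or Cyct. This rule used names and no measured value, and it found 106 genes of the 19532 in the table, measured by 157 probes. Of these genes 85 encode structural subunits or cytochrome c and 21 encode assembly factors. Each of 2 lung samples, untreated and taken without culture, was labelled with Cy3 and hybridised on its own array with Cy5-labelled MEF RNA. The MEFs, primary fibroblasts derived from embryos, were kept in serum-containing medium. Strain, age and sex are not given in the labels, and nothing says that the lung samples came from separate animals, so the p-values measure only the spread between these samples, which may be technical. Dyes were not swapped, and a dye effect therefore cannot be told apart from the difference between lung and MEF.

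Mitochondria oxidise NADH at complex I and succinate at complex II, pass the electrons through ubiquinone to complex III and by cytochrome c to complex IV (cytochrome c oxidase), and use the resulting proton gradient to make ATP at complex V (ATP synthase). Most subunits are encoded in the nucleus. Several subunits of complex IV exist as isoforms from separate genes, 1 expressed broadly and another favoured in muscle, testis or lung.

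Every value below is a log2 ratio of lung over MEF and not a level, so a gene with a higher ratio is not thereby the more abundant one. Higher in lung is the likely direction of positive values, since the series describes lung compared with MEF and all 22 values of 11 lung epithelial genes, such as the surfactant gene Sftpc, were above 0. With that direction assumed, all 8 fibroblast genes checked were lower in lung, with Col1a1 at -7.62. In bulk RNA, fewer cells of a type and less RNA per cell cannot be told apart. A gene was said to have risen or fallen when limma's test of its ratio against 0 gave a Benjamini-Hochberg adjusted p below 0.05, and a gene was called 2-fold apart when it differed by at least 1 on the log2 scale in the same direction on both arrays. Receptor range means the central 95% of 1046 olfactory and vomeronasal receptor genes on each array, genes normally transcribed in sensory epithelia, and genes are given as outside it where both arrays placed them there.

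Respiratory chain and ATP synthase genes lay a little above the bulk of the table, and most were less than 2-fold apart. The test called 58 members higher and 33 lower in lung, which is 54.7% and 31.1% of the members, against 32.6% and 43.6% of all genes, and 85.8% of the members passed in either direction against 76.2% of all genes. By the 2-fold rule 9 members were higher and 7 lower in lung, or 8.49% and 6.6%, against 17.1% and 15.4% of all genes. In either direction 15.1% of the members were 2-fold apart, against 32.5% of all genes. The shares over all genes are the background for the counts of smaller groups below, none of which was tested against them. The median log2 ratio of the members was 0.19, beside -0.21 over all genes. Centring the arrays on all genes, which moved the median of all genes by 0.18 (log2), put the members' median at 0.37. Centring them on the receptor genes put it at 0.61, with 75 members called higher and 15 lower. The arrays gave almost the same value for each member. Their difference had an SD of 0.09 over the members and 0.31 over all genes, and Pearson's r across the 106 members, which share both arrays and the MEF reference, was 0.996 (Spearman's rho 0.99).

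**Figure D1:**
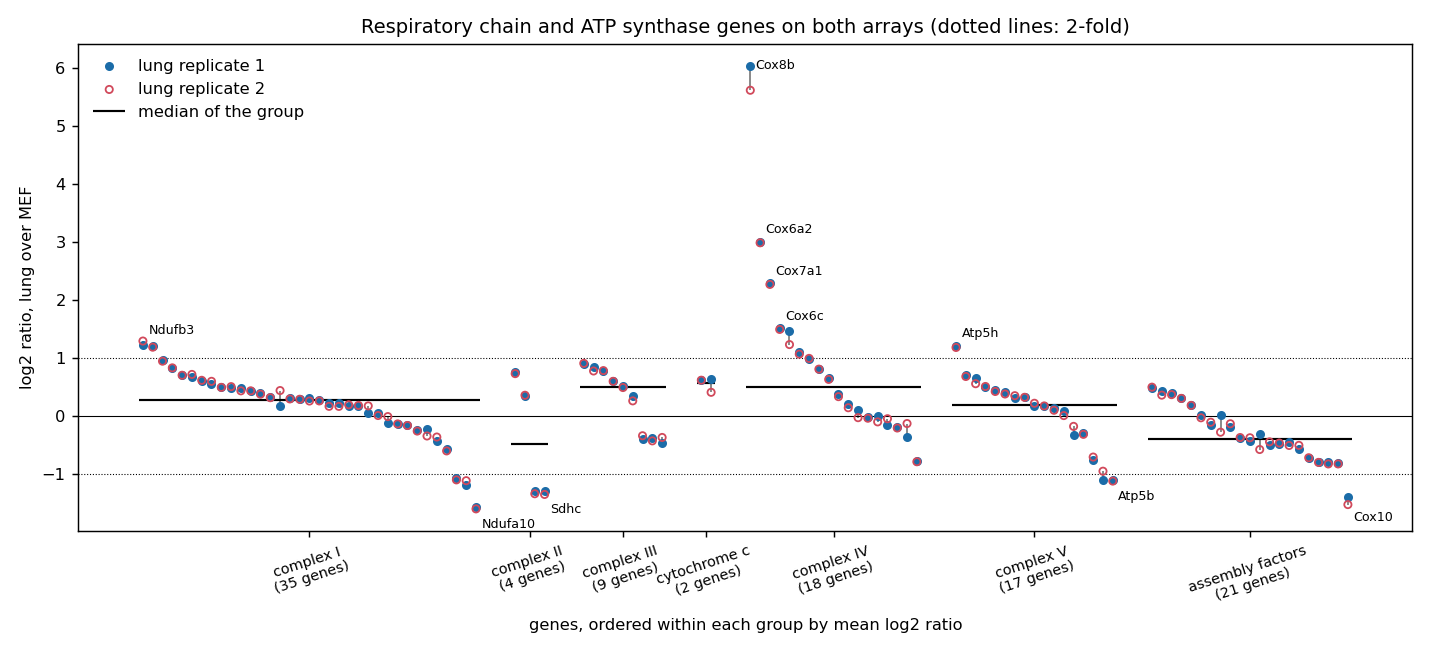
Log2 ratio of lung over MEF (vertical axis) for each of the 106 genes, grouped by complex and ordered by mean within each group, with filled points for lung replicate 1, open points for lung replicate 2 and a bar for the group median. Cox8b, Cox6a2 and Cox7a1 stand above the other members, between 2.27 and 6.03, and most genes lie inside the dotted 2-fold lines.

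The muscle isoforms of complex IV had the highest ratios of all members. Cox8b, the muscle and brown fat form of subunit VIII, had log2 ratios of 6.03 and 5.61 on lung replicates 1 and 2. It averaged 5.82 ± 0.29 (SD, n = 2), or 56.6-fold, and ranked 165 from the top of the 19532 genes. Cox6a2, the heart and skeletal muscle form of subunit VIa, stood at 3.001 and 2.984, or 7.96-fold. Cox7a1, the heart, skeletal muscle and brown fat form of subunit VIIa, stood at 2.30 and 2.27, or 4.86-fold. All 3 lay above the receptor range on both arrays, and their adjusted p by limma was at most 0.00199. Each of the 3 was measured by 1 probe, so probes could not be compared. Their broadly expressed partners had much smaller ratios. Cox8a was at 0.37 and 0.33, Cox6a1 at 0.20 and 0.14, and Cox7a2 at 0.80 and 0.81. The ratio of the muscle form exceeded that of its partner by 5.47 for Cox8b over Cox8a, by 2.82 for Cox6a2 over Cox6a1 and by 1.48 for Cox7a1 over Cox7a2, as means of both arrays, so members of a pair differed unequally between lung and MEF.

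**Figure D2:**
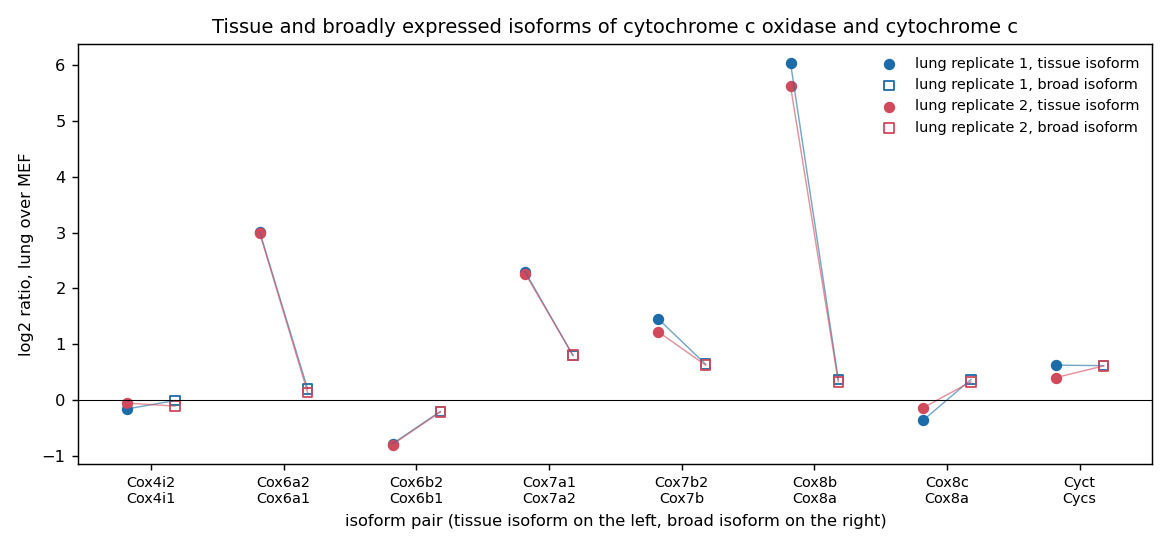
Log2 ratio of lung over MEF (vertical axis) for 8 isoform pairs, with the tissue isoform as a filled point on the left, the broadly expressed isoform as an open square on the right and a colour for each lung replicate. Lines join the members of a pair on the same array and are steep for Cox8b, Cox6a2 and Cox7a1, whereas Cox4i2 and Cox4i1 both lie near 0.

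Markers of striated muscle moved with these isoforms. Of 20 cardiac and striated muscle genes, 16 were higher and 4 lower in lung, with a median of 2.95, and 14 lay above the receptor range. The mitochondrial creatine kinase of muscle, Ckmt2, was at 7.60 and 7.86, and the atrial light chain Myl7 at 6.32 and 6.27. Sarcolipin (Sln) was at 5.80 and 5.65, the alpha myosin heavy chain Myh6 at 4.53 and 4.57, and cardiac troponin I (Tnni3) at 4.43 and 4.46. In contrast, Acta1 (-3.52), Actc1 (-2.75), Tnnt3 (-0.93) and Myl2 (-0.78) were lower in lung. Of 6 fat markers 5 were higher and none lower, with Adipoq at 5.85 and 5.10, Cidea at 4.96 and 5.32, and the brown fat uncoupling protein Ucp1 at 0.87 and 0.70. The part of muscle or fat tissue in the ratios of Cox8b, Cox6a2 and Cox7a1 was not tested.

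**Figure D3:**
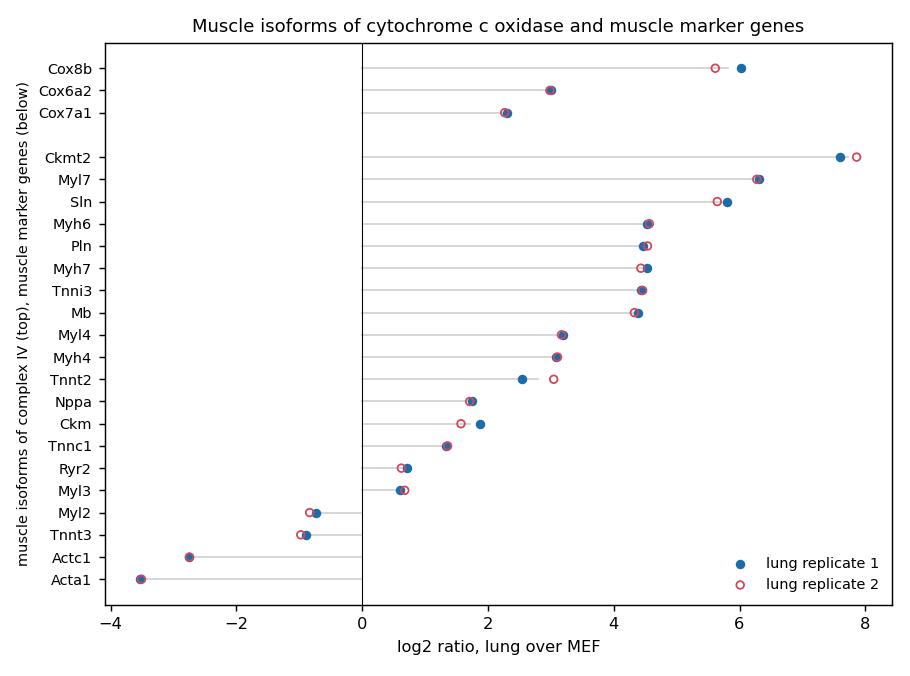
Log2 ratio of lung over MEF (horizontal axis) on both arrays for the 3 muscle isoforms of complex IV (top) and the 20 muscle marker genes (below), each ordered by mean. Of the markers 16 lie to the right of 0, up to 7.86 for Ckmt2, and Acta1, Actc1, Tnnt3 and Myl2 lie to the left.

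The promoters of a muscle isoform and its partner are shown for Cox8b and Cox7a1, whose ratios differed from those of their partners. For Cox6a2 no promoter was used here, and that of its partner Cox6a1 is shown as one that holds motifs of the nuclear respiratory factors. They are the 250 bases before the RefSeq gene start, from the GRCm38.p6 table, at chr7:140900447-140900696 on the minus strand (Cox8b), chr19:7217617-7217866 on the minus strand (Cox8a), chr7:30183921-30184170 on the plus strand (Cox7a1), chr9:79759854-79760103 on the minus strand (Cox7a2) and chr5:115348959-115349208 on the minus strand (Cox6a1). Capitals mark the letters of the motifs described after them.
Cox8b: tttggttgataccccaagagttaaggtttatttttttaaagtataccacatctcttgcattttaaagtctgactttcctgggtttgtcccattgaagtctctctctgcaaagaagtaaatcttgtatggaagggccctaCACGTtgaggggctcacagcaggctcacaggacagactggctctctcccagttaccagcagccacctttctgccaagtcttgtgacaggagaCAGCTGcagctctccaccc
Cox8a: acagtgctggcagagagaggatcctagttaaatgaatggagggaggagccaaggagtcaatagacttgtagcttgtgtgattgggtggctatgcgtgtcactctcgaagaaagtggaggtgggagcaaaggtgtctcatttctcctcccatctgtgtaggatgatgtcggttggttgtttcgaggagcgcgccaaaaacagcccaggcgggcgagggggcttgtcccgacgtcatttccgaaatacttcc
Cox7a1: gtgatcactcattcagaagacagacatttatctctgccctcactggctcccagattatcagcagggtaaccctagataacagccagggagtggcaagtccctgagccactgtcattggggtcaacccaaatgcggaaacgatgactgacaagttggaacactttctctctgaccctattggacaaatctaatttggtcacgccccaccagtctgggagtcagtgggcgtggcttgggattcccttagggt
Cox7a2: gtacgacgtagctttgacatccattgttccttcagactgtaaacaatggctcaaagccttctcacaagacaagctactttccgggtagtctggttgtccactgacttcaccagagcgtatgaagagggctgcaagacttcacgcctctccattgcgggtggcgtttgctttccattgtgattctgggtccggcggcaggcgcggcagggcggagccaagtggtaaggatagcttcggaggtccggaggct
Cox6a1: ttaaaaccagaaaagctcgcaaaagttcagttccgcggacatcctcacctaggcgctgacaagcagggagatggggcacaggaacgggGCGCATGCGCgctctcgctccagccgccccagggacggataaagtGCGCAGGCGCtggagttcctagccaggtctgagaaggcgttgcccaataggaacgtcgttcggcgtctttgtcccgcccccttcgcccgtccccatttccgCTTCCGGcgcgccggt

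RefSeq promoter windows, from 250 bases before to 50 after the start, were found for 88 of the 106 genes, as 94 windows, and motifs were sought in them on both strands. Cox8b, Cox7a1 and Cox6a2 lie on chromosome 7, together with 7 other members. In the Cox8b window the first run is the HIF letters ACGTG read on the other strand and the second is the E-box CAGCTG. The E-box, a letter string bound by myogenic factors, was added to the search after the sequences were seen. Both the HIF letters and the E-box stood again in the Cox8b window after the bases shown. The Cox7a1 window held neither an E-box nor a match to NRF1, GABP, YY1 or ERR, and its HIF letters stood after the bases shown. The window of its broad partner Cox7a2 held none of the motifs sought, so their absence does not set the muscle form apart. In the Cox8a window GABP letters stood only at and after the end of the bases shown. In the Cox6a1 window the first capital run is the 10-base NRF1 palindrome. The second, read on the other strand, is the same string with an inner base left free. The third run is the GABP letters CCGGAAG read on the other strand. NRF1 and GABP are the transcription factors classically tied to nuclear genes of respiration.

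Across the 94 member windows, 7.45% held the NRF1 palindrome, against 0.971% of all 32851 windows and 1.33% of the 21263 protein-coding ones. Members with it were Atp5g2, Atp5k, Cox6a1, Ndufa11, Ndufaf4, Ndufaf5 and Uqcrc1. The GABP letters stood in 28.7% of the member windows (11.6% of protein-coding windows), the YY1 letters AAGATGGC in 12.8% (3.05%), the ERR letters AAGGTCA in 8.51% (4.08%), the HIF letters in 23.4% (20.9%) and the E-box in 7.45% (15.6%). The ERR letters stood in 7 of 53 windows of members that rose and in 0 of 29 windows of members that fell, the NRF1 palindrome in 2 and 5 of them. With its inner base left free the NRF1 string stood in 20.8% of the windows of members that rose and 20.7% of those of members that fell. In the same order the GABP letters stood in 34% and 24.1% and the YY1 letters in 13.2% and 10.3%. The HIF letters stood in 24.5% and 24.1% and the E-box in 7.55% and 3.45%. None of these splits was tested. These matches describe the letters in these windows, and the median share of G and C in the bases before the start was also higher in member windows (57.4%) than in all windows (52.4%).

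The other tissue isoforms had small or mixed ratios. Cox4i2, the form of subunit IV known from lung and perivascular cells, stood at -0.15 and -0.05, and its partner Cox4i1 at -0.00394 and -0.10. Neither passed limma's test (adjusted p = 0.166 and 0.369). Both were above 0 with centring on all genes (0.08 and 0.13), without passing, and with receptor centring (0.31 and 0.36), where they passed (adjusted p = 0.0286 and 0.0149). Pericyte markers beside them went both ways, with 6 of 9 higher and 3 lower, Higd1b at 5.39 and 5.43 against Rgs5 at -2.60 and -2.56. Targets of the hypoxia factor HIF were mostly lower in lung, 7 of 10 with 2 higher and a median of -0.83. Over all genes 32.6% were called higher and 43.6% lower. Neither these lists nor the germ cell markers below were tested against those shares. Among the testis forms, Cox7b2 was higher at 1.46 and 1.23 (adjusted p = 0.00556), Cox6b2 was lower at -0.78 and -0.79 (adjusted p = 0.00308), and Cox8c, at -0.36 and -0.13, did not pass. The testis cytochrome c, Cyct, rose with 0.63 and 0.41, beside 0.62 and 0.61 for the broad form Cycs. The 3 probes of Cycs lay at 0.93, 0.91 and 0.0084, so the closeness of the pair depends on their averaging. All 4 testis forms lay within the receptor range on both arrays or on 1 of them. Markers of male germ cells were lower in 4 and higher in 1 of 7, with none outside the receptor range on both arrays. The protamine gene Prm1, at -1.55 and -1.26, was below it on lung replicate 1, and the testis lactate dehydrogenase Ldhc, at 0.93 and 1.40, was above it on lung replicate 2.

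The broadly expressed subunits of complex IV, including Ndufa4, leaned upward, with 7 of 11 higher and 1 lower and a median of 0.35. Cox6c, a small accessory subunit, was highest at 1.51 and 1.49, or 2.83-fold, and above the receptor range. Ndufa4, first described with complex I and now placed in complex IV, was at 1.10 and 1.06, or 2.12-fold. Cox7c (0.98) and Cox7b (0.64), both small accessory subunits, rose as well. Cox5a stood at 0.10 and -0.03 and the zinc-binding subunit Cox5b at -0.02 and -0.04, neither past the test. Cox6b1, which faces the intermembrane space, was lower at -0.20 and -0.21. With receptor centring it was at 0.21 and passed as higher (adjusted p = 0.0274 by limma). All 18 genes of complex IV together had 11 higher, 2 lower and a median of 0.49.

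Complex I subunits were higher in 22 and lower in 9 of 35, with a median of 0.28. The beta subunits of the membrane arm, Ndufb2 to Ndufb11, were all above 0 on both arrays, and 9 of these 10 passed. Ndufb3 was at 1.23 and 1.29, Ndufb11 at 1.197 and 1.184 and Ndufb10 at 0.96 and 0.94, while Ndufb6, at 0.04 and 0.17, did not pass. Of the 13 alpha subunits, acyl carrier protein Ndufab1 included, 7 rose and 5 fell. Ndufa6 (0.70) and the X-linked Ndufa1 (0.69) were the highest of these and Ndufa11 (-1.07 and -1.10) and Ndufa10 (-1.57 and -1.60) the lowest. Ndufa10, a nucleoside kinase-like accessory subunit, was 3.01-fold lower in lung, the lowest of all 106 members, and below the receptor range.

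The redox-active arm of complex I was split. Ndufs7, which carries the iron-sulfur cluster next to the ubiquinone site, was at 0.83 on each array, and Ndufs3 at 0.43 on each. Ndufv1, the flavin-binding subunit that accepts electrons from NADH, stood at 0.22 and 0.16. By contrast Ndufs8, another iron-sulfur subunit, was at -0.57 and -0.60, Ndufs1, the largest subunit, at -0.24 and -0.26, and the accessory subunit Ndufv3 at -1.20 and -1.12. Ndufs1 was above 0, at 0.16, with receptor centring, and passed there as higher (adjusted p = 0.0449 by limma). Ndufv2 averaged 0.38, although its 2 probes lay at 1.16 and -0.40. The 3 probes of Ndufv3 ran from -1.85 to -0.15.

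Complex II, the only complex that is also an enzyme of the citric acid cycle, divided evenly. The iron-sulfur subunit Sdhb was at -1.29 and -1.34, or 2.49-fold lower in lung, and the membrane anchor Sdhc at -1.30 and -1.35, or 2.51-fold lower. The other anchor, Sdhd, was higher at 0.76 and 0.73. The flavoprotein Sdha rose at 0.35 on each array, and its 3 probes gave 1.31, 0.18 and -0.43. Without the probe farthest from the others its value was -0.13 (adjusted p = 0.0562 by limma).

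In complex III, 6 of 9 genes were higher and 3 lower, with a median of 0.51 and none 2-fold apart. The small subunits Uqcr11 (0.89 and 0.90), Uqcrh (0.85 and 0.77), Uqcrb (0.77 and 0.78) and Uqcr10 (0.59 and 0.60) rose, and the small ubiquinone-binding protein Uqcrq was lower at -0.46 and -0.37. Among the larger ones, the Rieske iron-sulfur protein Uqcrfs1 (0.52 and 0.49) and the core protein Uqcrc2 (0.33 and 0.26) rose, while cytochrome c1 (Cyc1, -0.39 and -0.34) and the other core protein, Uqcrc1 (-0.38 and -0.43), fell. None of these 3 lower calls passed with receptor centring, where Cyc1 was at 0.0485, Uqcrc1 at 0.0112 and Uqcrq at -0.00167. With centring on all genes Uqcrq passed, and Cyc1 and Uqcrc1 did not (adjusted p = 0.0684 and 0.0537 by limma).

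ATP synthase genes were higher in 10 and lower in 4 of 17, with a median of 0.20. All 5 small membrane subunits rose, Atp5l (0.50), Atp5j2 (0.43), Atp5k (0.33), Atp5md (0.32) and Atp5mpl (0.20). In the peripheral stalk, Atp5h stood at 1.21 and 1.18, or 2.29-fold, and Atp5j at 0.70 and 0.68, while Atp5o (0.13 and 0.10) and Atp5pb (-0.33 and -0.18) did not pass. In the soluble F1 part, Atp5b, the beta subunit that holds the catalytic sites, was at -1.11 and -1.12, or 2.17-fold lower in lung, although 1 of its 3 probes lay near 0 and another at -1.96, and the delta subunit Atp5d of the central stalk was at -0.76 and -0.71. The alpha subunit Atp5a1, which alternates with beta in the head, was at 0.41 and 0.38, and its 3 probes ran from -0.26 to 1.10. The epsilon subunit Atp5e, also of the central stalk, was at 0.65 and 0.55. The c ring protein is encoded by 3 genes with the same mature product. Of these Atp5g1 was at -1.10 and -0.95, Atp5g2 at -0.30 and -0.32, and Atp5g3 at 0.17 on each array.

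Assembly factors, which help build the complexes without being part of them, lay below the subunits. Of 21, 13 were lower and 5 higher in lung, with a median of -0.40, against 20 lower and 53 higher of the 85 subunits and cytochrome c genes, with a median of 0.30. The median of the assembly factors became -0.22 with centring on all genes and 0.0131 with receptor centring, shifts that apply to every gene alike and so leave the gap to the subunits as it was. Cox10, which makes heme for complex IV, was lowest at -1.40 and -1.53, or 2.76-fold lower, and below the receptor range. The complex I factor Ndufaf1 (-0.82), the copper handling factor Cox11 (-0.81), the membrane insertase Cox18 (-0.80) and Ndufaf2 (-0.73) followed. Ndufaf3 (0.48), the heme A synthase Cox15 (0.39), Cox14 (0.38), Cox16 (0.30) and Cox20 (0.18) rose. The 5 probes of Cox16 were of both signs, from -0.54 to 0.998. Cox7a2l, a factor of respiratory supercomplexes, fell at -0.43 and -0.38. Sdhaf2, which attaches flavin to Sdha, had 4 probes from -1.40 to 2.22, so its mean of -0.13 is uncertain, and it did not pass. Among 17 further assembly and expression factors that the naming rule does not cover, 11 were lower and 2 higher (median -0.51), with Lrpprc (-1.37) and Bcs1l (-1.30) lowest and Sco1 (0.53) and Surf1 (0.32) highest.

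**Figure D4:**
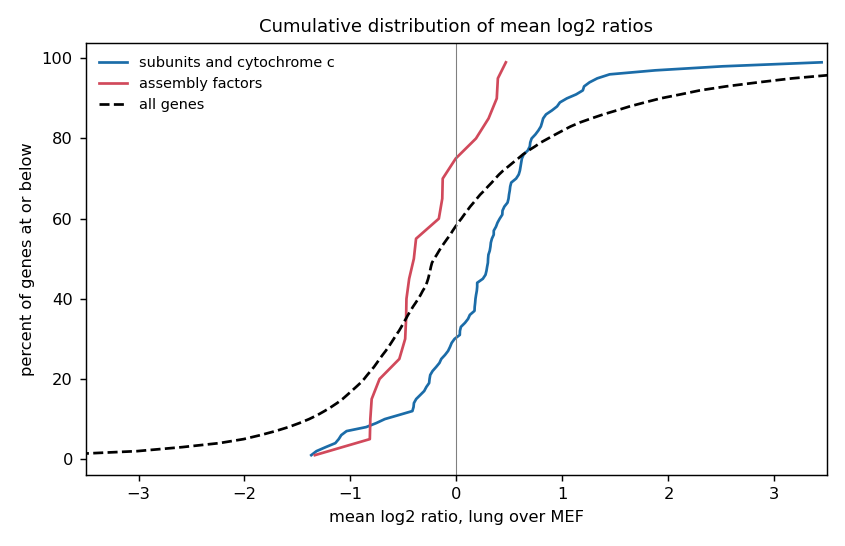
Cumulative percent of genes (vertical axis) at or below a mean log2 ratio of lung over MEF (horizontal axis), for the 85 subunit and cytochrome c genes, the 21 assembly factors and, dashed, all 19532 genes. The subunit curve is steeper than that of all genes and crosses 50% at 0.30, the assembly factor curve at -0.40 and the curve of all genes at -0.21.

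Enzymes that feed the chain and regulators of its genes differed as follows. Of 15 genes of the citric acid cycle and pyruvate dehydrogenase, 12 were lower and 2 higher in lung, with a median of -0.58. Dihydrolipoamide dehydrogenase (Dld, -1.18) and citrate synthase (Cs, -1.02) were lowest, and Idh3g (0.34) and Ogdh (0.15) highest. Regulators of nuclear respiratory genes and of mitochondrial DNA were higher in 6 and lower in 6 of 15 (median -0.13). Ppargc1a, the coactivator known for driving mitochondrial biogenesis in muscle and brown fat, was higher at 1.16 and 1.14. Its 2 probes lay far apart, at 0.25 and 2.05. Pprc1, a relative of Ppargc1a known for its induction in growing cells, was lower at -1.94 and -1.95. Gabpb1 averaged 0.73 over 4 probes from -1.66 to 4.17, which leaves its mean uncertain. Gabpa, the DNA-binding subunit of GABP, averaged -0.99 over 3 probes from -1.98 to 0.15.

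Measured by several probes were 32 of the members, and 74 had 1 probe. Probes of both signs occurred in 17 of the 32, and in 13 the probes spanned more than 1 on the log2 scale. Besides Sdhaf2, Cox17 had probes at 0.96 and -1.29 and Ndufaf4 from -1.25 to 0.83. Members with several probes had a median of -0.14 and those with 1 probe a median of 0.29, and the part of probe number in the medians was not tested. Many of these genes have processed pseudogenes or close paralogs in the mouse, whose transcripts a probe may share.

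**Figure D5:**
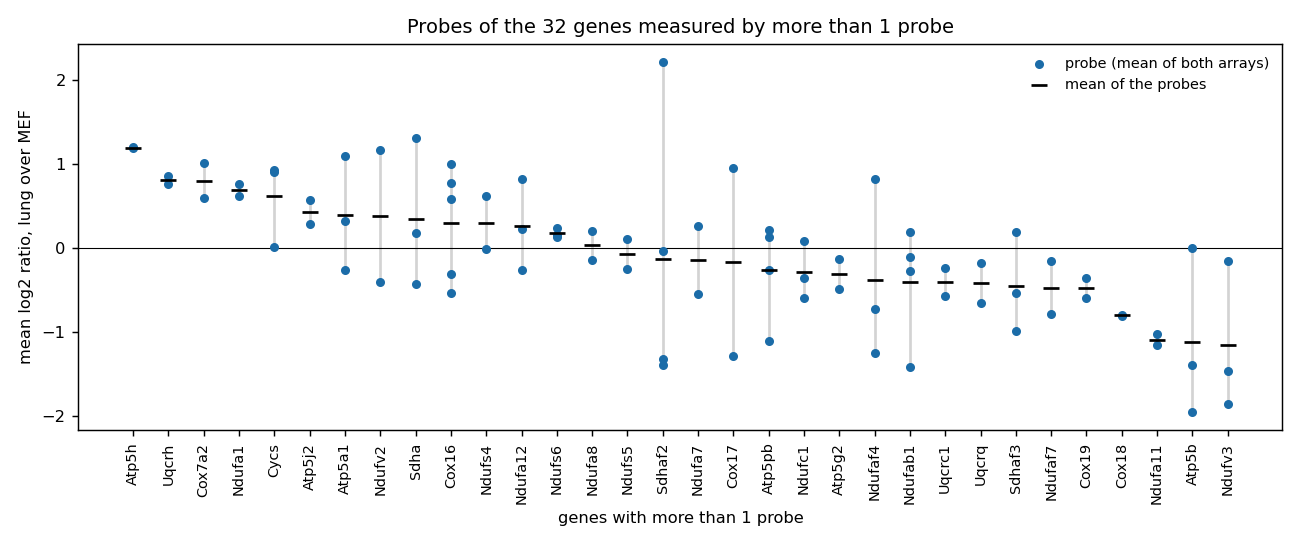
Mean log2 ratio of lung over MEF (vertical axis) of each probe of the 32 genes with more than 1 probe, ordered by the mean of their probes (bars). Probes of Sdhaf2 run from -1.40 to 2.22.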

How the data were processed

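The values deposited by the authors are log ratios of each probe on both arrays, read here as log2. Agilent Feature Extraction is named per the submitters' processing notes. Its version, background correction, dye normalization, logarithm base and ratio direction were not stated there or in the labels. Values reach 10.1 in size, beyond scanner range as base-10 logarithms, and natural logarithms cannot be told apart from log2 by the table. Probe medians were -0.28 (lung replicate 1) and -0.14 (lung replicate 2), and no centring was applied. Intensities and background flags were not used here, so dim ratios are not marked, and 2 arrays limit the precision.

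Of 41174 probes, 32664 had 1 symbol, 45 several and 8465 none in the platform annotation, and probes of a gene were averaged. The 106 members were the same under RefSeq symbols. A departure of each gene from 0 was tested in R 4.3.3 by limma 3.58.1 (intercept-only lmFit, eBayes, Benjamini-Hochberg adjustment over all 19532 genes), which leaves out the spread between MEF cultures. The test was tried on simulated data whose noise model and pass conditions were revised after first runs failed them, so passing it is weak evidence. Members and lists were chosen with earlier results of these data known. Named genes were the members 2-fold apart on both arrays, the 2 highest and 2 lowest of each group, all isoform pairs, redox and catalytic core subunits and members with probes 2-fold to both sides of 0, and the 2 highest and lowest of each pathway list. Other members named here were added after their values were seen. Alternatives covered centring, probe averaging, moderation, the tested fold, a filter on ratios near 0, the logarithm base and leaving out each array.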

Additional observations from a re-analysis of the deposited data

How the results depend on the processing

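No paired analysis was possible because the design has 1 group of 2 arrays. Against 58 members higher and 33 lower, limma called 34 and 13 without moderation, 7 and 4 against a 2-fold change, 30 and 18 after genes within 0.5 of 0 were left out (fewer genes tested), and 75 and 15 with receptor centring. Against 9 members 2-fold higher and 7 lower, 4 were lower with centring on all genes, 23 higher and 1 lower with receptor centring, and 18 and 14 as natural logarithms. Medians with centring on all genes were 0.37 for all members, 0.46 for complex I, -0.30 for II, 0.69 for III, 0.68 for IV, 0.38 for V, 0.75 for cytochrome c and -0.22 for assembly factors. With receptor centring they were 0.61, 0.70, -0.0675, 0.92, 0.91, 0.61, 0.98 and 0.0131 in that order, and as natural logarithms 0.28, 0.40, -0.70, 0.73, 0.71, 0.28, 0.82 and -0.58. With the median of the probes, assembly factors were at -0.48, complex II at -0.57 and cytochrome c at 0.71. Without outlying probes, assembly factors were at -0.47 and complex II at -0.72. On single arrays the members' median was 0.19 to 0.20, complex I 0.26 to 0.27 and assembly factors -0.39 to -0.38.

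The sign of single genes turned for Cox4i1 (0.13), Cox4i2 (0.08) and Sdhaf2 (0.0476) with centring on all genes. With receptor centring it turned for Cox4i1 (0.36), Cox4i2 (0.31), Cox6b1 (0.21), Cox8c (0.17), Cyc1 (0.0485), Ndufs1 (0.16), Sdhaf2 (0.28) and Uqcrc1 (0.0112), for Sdha (-0.13) without outlying probes, and for Sdhaf2, which ran from -0.282 to 0.0136 with 1 array left out. The cause was not tested beyond each setting's own construction. Cox8b, Cox6a2 and Cox7a1 kept their direction under each of these settings. With ratios this far from 0 and 1 probe each, the settings could hardly turn it, so this is weak evidence. Cox8b did not pass in the limma fit without moderation (adjusted p = 0.0586).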

Other observations

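Genes by which electrons reach ubiquinone outside complexes I and II had ratios from -0.33 to 3.85. Proline dehydrogenase (Prodh) was at 3.81 and 3.89 and the sulfide oxidising enzyme Sqor at 1.74 and 1.68 on lung replicates 1 and 2, both above the receptor range. Gpd2, the mitochondrial glycerol phosphate dehydrogenase, was lower at -0.31 and -0.34, and Etfdh, which takes electrons from fatty acid oxidation, at -0.24 and -0.16. Of the 7 genes measured 3 rose, 2 fell and 2 did not pass limma's test, with a median of 0.09. Markers of motile cilia, cells rich in mitochondria, were higher in 7 of 7, with Dynlrb2 at 6.82 and 6.81.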
